A study of Danio rerio with 6 samples.

Results

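In the testes of adult zebrafish (Danio rerio), 8 genes of the p53 response and of mitochondrial apoptosis were followed: mdm2, ccng1, cdkn1a, gadd45aa, bbc3, bida, baxa and casp8. They were taken by name from the 32520 genes of the deposited count table. For 6 of the 8 a single gene carried the symbol itself. baxa was read from the only gene named BAX, a name that the RefSeq gene table gives as a synonym of baxa alone. The name GADD45A is held by 2 paralogs that the sources used here do not tell apart. Both are given by their Ensembl identifiers, so 9 identifiers stand for the 8 genes.

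The study compared 3 fish kept with polystyrene nanoplastics, which are minute beads or fragments of polystyrene, with 3 control fish. All 6 were adults labelled as wild type. The particles were added to the tank water every 24 h over 96 h, and none were given to the controls. Of the particles, neither size nor dose was found in the labels. Each library was made from poly(A)-enriched RNA of the testicles of 1 animal. Libraries carry the replicate number and then the animal number of their labels: exposed 2-2, exposed 3-1 and exposed 3-3, and control 1-2, control 2-2 and control 3-1. The labels do not say what a shared replicate number means, and the libraries are treated as independent.

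The transcription factor p53 is stabilised when DNA is damaged or a cell is stressed, and it switches on genes that stop the cell cycle, repair DNA or kill the cell. One of its targets, mdm2, encodes the ubiquitin ligase that sends p53 for degradation, which closes a feedback loop. In the mitochondrial route to apoptosis, BH3-only proteins such as Puma (bbc3) and Bid (bida) lead Bax to open pores in the outer mitochondrial membrane, and caspases then cut the cell's proteins. Roles are given here as known from mammals. In the testis, apoptosis of germ cells is part of normal spermatogenesis and increases after damage to DNA.

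Libraries held between 76205591 and 108273937 counts, with the 3 exposed libraries all deeper than the controls. No 2 libraries agreed within sampling noise (smallest chi-square per degree of freedom 161). Markers of germ cells, Sertoli cells and Leydig cells were detected in all 6 libraries. Markers of other tissues differed between the groups and are given beside the results below. Levels are counts per 1000000 (CPM) after TMM scaling. Log2 fold changes are exposed over control ± SE from edgeR's quasi-likelihood test, fitted on the 26108 genes that passed the filter on low counts. The 95% intervals come from the same fit, and p-values were adjusted over all genes tested by the Benjamini-Hochberg method. All 9 identifiers passed the filter.

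None of the 9 identifiers passed edgeR's test at an adjusted p of 0.05, and neither did any of the 26108 genes tested (0.0% called). The smallest adjusted p of the 9 was 0.172. At an unadjusted edgeR p under 0.05, 1 of the 9 was higher in exposed testes, bbc3, against 9.68% of all genes, and 1 was lower, bida, against 6.79%. The levels of the groups did not overlap for the same 2 genes: bbc3 was higher in every exposed library than in any control (12.8% of all genes), and bida was lower in every exposed library (10.9%). DESeq2, run as an alternative, called 1 of the 9 (6.68% of all genes called), bida, as lower (1.34%), and called 0 higher (5.35%). These counts are small and were not tested against the shares of all genes. Directions were mixed: 3 had a log2 fold change above 0 and 6 below, with a median of -0.05, against 0.04 over all genes tested. Over all genes tested, 13599 were above 0 and 12509 below.

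**Figure D1:**
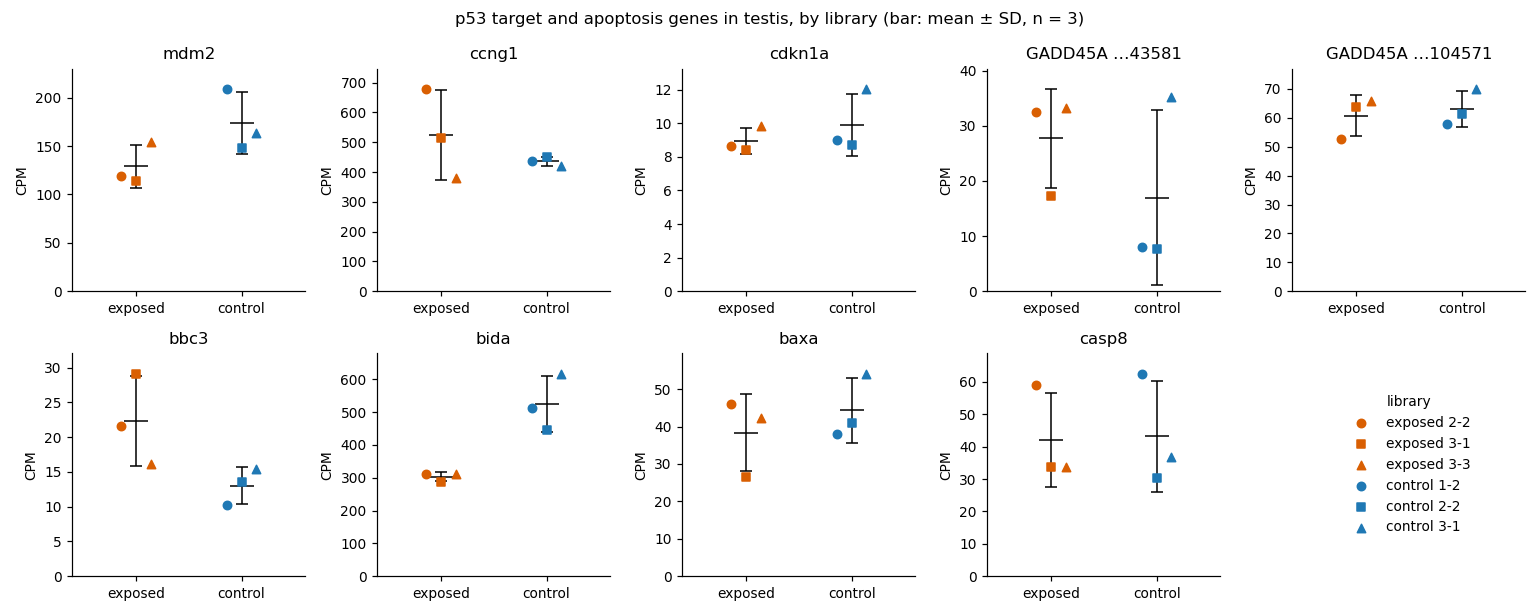
Level in CPM (vertical axes from 0, a scale per panel) of the 9 identifiers in 3 exposed (orange) and 3 control (blue) libraries, with mean ± SD as black bars and the last digits of the Ensembl identifier where a name is shared. bida lay between 288 and 311 CPM in exposed libraries and between 445 and 617 CPM in controls, while cdkn1a lay between 8.39 and 9.85 CPM in exposed libraries and between 8.73 and 12.1 CPM in controls.

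The feedback genes of p53 did not share a direction. mdm2 (ENSDARG00000033443) had 119, 114 and 154 CPM in exposed 2-2, 3-1 and 3-3, against 209, 148 and 164 CPM in control 1-2, 2-2 and 3-1. Exposed 3-3 lay between the controls, so the groups overlapped. The log2 fold change was -0.43 ± 0.23, with an interval from -0.97 to 0.11 (edgeR adjusted p = 0.412). ccng1 (ENSDARG00000076667), which encodes cyclin G1, an early p53 target that recruits a phosphatase to Mdm2, had 679, 513 and 379 CPM in exposed 2-2, 3-1 and 3-3, against 437, 449 and 421 CPM in control 1-2, 2-2 and 3-1. The controls agreed closely (SD 14.2 CPM), whereas the exposed libraries spread on both sides of them (SD 150.2 CPM). Its log2 fold change of 0.27 ± 0.25 had an interval from -0.32 to 0.85 (edgeR adjusted p = 0.674), and without exposed 2-2 it was 0.03.

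For the arrest genes cdkn1a and GADD45A the groups overlapped. cdkn1a (ENSDARG00000076554) encodes p21, the inhibitor of cyclin-dependent kinases through which p53 holds the cell cycle. It had 8.66, 8.39 and 9.85 CPM in exposed 2-2, 3-1 and 3-3, against 8.98, 8.73 and 12.1 CPM in control 1-2, 2-2 and 3-1. These levels rest on 885, 789 and 1129 counts in the exposed libraries and on 803, 685 and 857 counts in the controls, so counting error was small beside the spread between animals. The log2 fold change was -0.15 ± 0.33 (edgeR adjusted p = 0.878). Its interval ran from -0.89 to 0.60, that is, from 0.538 to 1.52 times the control level, and a p that misses the threshold does not show that the levels were equal.

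Gadd45a binds PCNA and p21 and acts in arrest, DNA repair and stress kinase signalling. The GADD45A paralog ENSDARG00000043581 had 32.5, 17.4 and 33.3 CPM in exposed 2-2, 3-1 and 3-3, against 8.05, 7.62 and 35.3 CPM in control 1-2, 2-2 and 3-1. A single control thus stood at the level of the highest exposed libraries, and the other two controls lay below all exposed libraries. The log2 fold change was 0.71 ± 0.64, with an interval from -0.79 to 2.20 (edgeR adjusted p = 0.654). With any 1 of the 6 libraries left out, it lay between 0.34, without control 2-2, and 1.81, without control 3-1 (edgeR adjusted p = 0.196 for the latter). The other GADD45A paralog, ENSDARG00000104571, had 52.5, 63.8 and 66.0 CPM in exposed 2-2, 3-1 and 3-3, against 57.8, 61.4 and 70.1 CPM in control 1-2, 2-2 and 3-1. Its groups overlapped, and its log2 fold change was -0.05 ± 0.20, with an interval from -0.52 to 0.41 (edgeR adjusted p = 0.935).

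The BH3-only genes had opposite signs. bbc3 (ENSDARG00000069282) encodes Puma, which p53 induces and which blocks the survival proteins of the BCL2 family. It had 21.7, 29.1 and 16.1 CPM in exposed 2-2, 3-1 and 3-3, against 10.2, 13.5 and 15.4 CPM in control 1-2, 2-2 and 3-1. Every exposed library lay above every control, though exposed 3-3 stood only just above control 3-1. The means were 22.3 ± 6.52 CPM in exposed testes and 13.0 ± 2.64 CPM in controls (SD, n = 3 each). The log2 fold change was 0.77 ± 0.32, with an interval from 0.04 to 1.51, and it did not pass over all genes (edgeR adjusted p = 0.284, DESeq2 adjusted p = 0.234). With any 1 of the 6 libraries left out, it lay between 0.52 and 0.96. In 4 of these 6 fits the unadjusted edgeR p was above 0.05. The same held with the replicate number as a block, where the log2 fold change of bbc3 was 0.61. That fit is close to the one without control 1-2 (0.62), the only library with its replicate number, and is not a separate check.

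bida (ENSDARG00000069290) encodes Bid, which caspase-8 cleaves to carry a death receptor signal to the mitochondria. It had 311, 288 and 310.4 CPM in exposed 2-2, 3-1 and 3-3, against 511, 445 and 617 CPM in control 1-2, 2-2 and 3-1. The exposed libraries were close together and all lay below the lowest control, with means of 303 ± 13.3 CPM in exposed testes and 524 ± 86.6 CPM in controls (SD, n = 3 each). The log2 fold change was -0.79 ± 0.21, with an interval from -1.28 to -0.30. It missed the threshold in edgeR (adjusted p = 0.172) and passed it in DESeq2 (adjusted p = 0.0309). With any 1 of the 6 libraries left out, the log2 fold change of bida lay between -0.91 and -0.68. In the same libraries, summed markers of meiotic and later germ cells were also lower, at 1946 to 2987 CPM in exposed libraries against 4596 to 5325 CPM in controls, with all 9 markers below 0 and none of the 9 at 0 in either group. All 4 Sertoli and all 5 Leydig markers were also below 0, as given below. In whole testes, fewer cells of a type and less RNA per cell cannot be told apart. The part of germ cells or of these other cells in the level of bida was not tested.

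baxa (ENSDARG00000020623) encodes Bax, which forms the pores in the outer mitochondrial membrane. It had 46.1, 26.6 and 42.3 CPM in exposed 2-2, 3-1 and 3-3, against 37.9, 40.9 and 54.1 CPM in control 1-2, 2-2 and 3-1. The groups overlapped, with a log2 fold change of -0.21 ± 0.28 and an interval from -0.84 to 0.42 (edgeR adjusted p = 0.777).

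casp8 (ENSDARG00000058325) encodes the initiator caspase of death receptors. It had 59.0, 33.6 and 33.7 CPM in exposed 2-2, 3-1 and 3-3, against 62.6, 30.2 and 36.8 CPM in control 1-2, 2-2 and 3-1. Each group held 1 high library and a lower pair, and the log2 fold change was -0.04 ± 0.35, with an interval from -0.84 to 0.77 (edgeR adjusted p = 0.977). How reads were divided between the GADD45A paralogs was not given in the sources used here, so the split within that pair is uncertain.

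**Figure D2:**
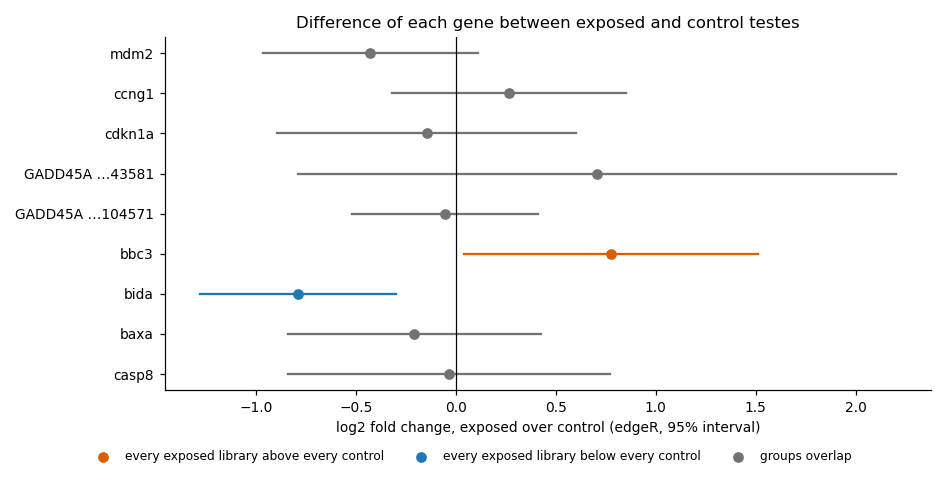
Log2 fold change, exposed over control (horizontal axis), of the 9 identifiers, with dots for the edgeR estimate and lines for its 95% interval, coloured by whether the 3 exposed and 3 control libraries overlap. The intervals of bbc3 and bida leave out 0, but none of the 9 passed after adjustment over 26108 genes.

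Markers of other tissues moved with the exposed group and differed among its libraries. Summed over 10 markers of the epidermis, the level was 13869, 11057 and 1511 CPM in exposed 2-2, 3-1 and 3-3, against 881, 2528 and 1334 CPM in control 1-2, 2-2 and 3-1. All 10 had a log2 fold change above 0 (median 3.93), and none was at 0 in either group. In exposed 3-3 the sum lay within the range of the controls. The keratin genes krt91 and krt4 made up most of the sum there, and 7 of the 10 markers were above every control, as were all 10 in exposed 2-2 and in exposed 3-1. The keratin gene krt5, for one, had 3672, 3498 and 179 CPM in exposed 2-2, 3-1 and 3-3, against 23.0, 30.2 and 20.1 CPM in control 1-2, 2-2 and 3-1. Summed over 9 markers of macrophages and neutrophils, the level was 5204, 2853 and 2416 CPM in exposed 2-2, 3-1 and 3-3, against 1297, 828 and 1104 CPM in control 1-2, 2-2 and 3-1. All 9 were above 0, with none at 0 in either group. Most of this sum came from cd74a and cd74b in every library. They had 2733 and 2056 CPM in exposed 2-2 and 1216 and 725 CPM in exposed 3-3, against 759 and 390 CPM in control 1-2. For lyz, exposed 3-1 lay within the range of the controls. This gene had 3.90, 0.287 and 7.89 CPM in exposed 2-2, 3-1 and 3-3, against 0.302, 0.357 and 0.0563 CPM in controls. The listed symbols mpeg1.1, mpx and mfap4.1 were not matched. The 10 lymphocyte markers (8 above 0, all but RAG2 and cd79b) summed to 171 to 280.0 CPM in exposed libraries and 123 to 205 CPM in controls. RAG2 and ighm alone had 109 and 68.0 CPM in control 1-2. In each exposed library 7 of the 10 were above every control. The 4 red blood cell markers (all above 0) summed to 3074 to 4393 CPM in exposed libraries and 830 to 2135 CPM in controls. The 4 Sertoli markers (none above 0) summed to 1229 to 1703 CPM in exposed libraries and 2031 to 2243 CPM in controls, and the 5 Leydig markers (none above 0) to 1416 to 2451 CPM in exposed libraries and 2083 to 4258 CPM in controls. Markers of germ cells of all stages, 5 of 6 below 0, summed to 1075 to 1847 CPM in exposed libraries and 2166 to 2552 CPM in controls. None of these markers was at 0 in all libraries of a group. The part of these cells in the levels of bbc3 and the pathway genes below was not tested.

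**Figure D3:**
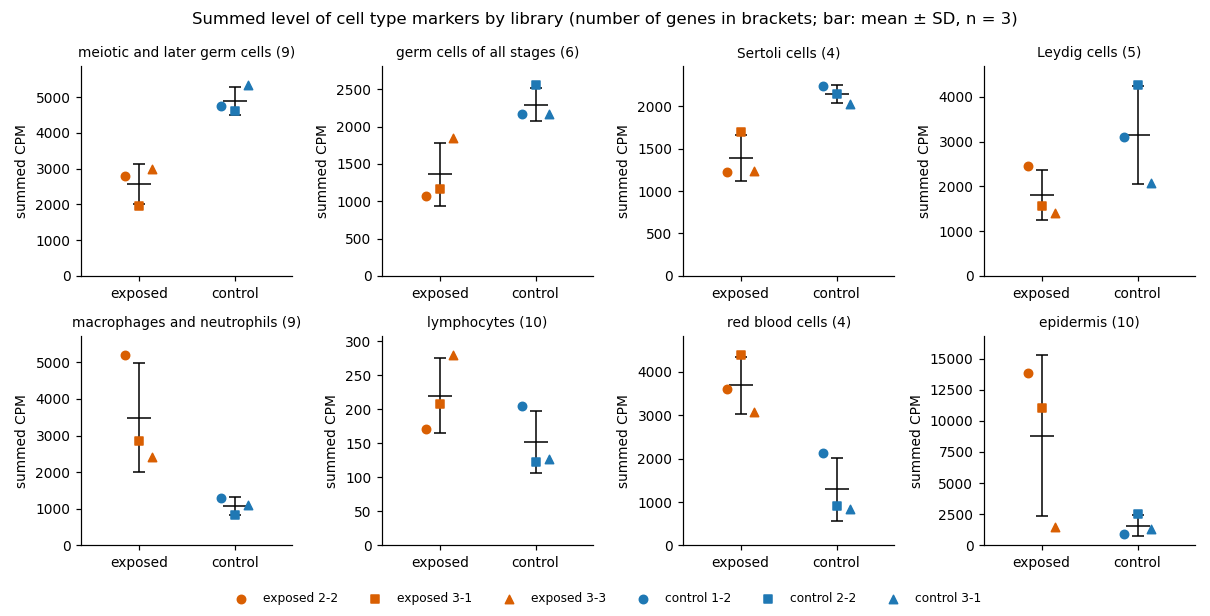
Summed CPM of marker genes for 8 cell types (vertical axes from 0, number of genes in brackets) in 3 exposed (orange) and 3 control (blue) libraries, with mean ± SD as black bars. Epidermal markers reached 13869 and 11057 CPM in exposed 2-2 and 3-1, against 1511 CPM in exposed 3-3 and at most 2528 CPM in controls, although 7 of the 10 markers in exposed 3-3 were above every control.

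Ratios of counts inside a library do not depend on how libraries are scaled, and 8 of them were taken, chosen after the levels were seen. A ratio of 2 different genes also carries their lengths, so its value is read only across libraries. With 3 against 3 animals an exact permutation test cannot go below p = 0.1, and no test was made. In 4 of the 8 the groups did not overlap. For bbc3 over bida and mcl1a over bcl2l1 this followed from the levels, since the first gene was higher and the second lower in every exposed library. The ratios bbc3 over mdm2 and bcl2l13 over bida each hold bbc3 or bida, whose own levels did not overlap. They are therefore not results separate from those levels, and no share over other pairs of genes was taken. Among p53 targets, bbc3 over mdm2 was 0.182, 0.255 and 0.104 in exposed 2-2, 3-1 and 3-3, against 0.0488, 0.0910 and 0.0940 in control 1-2, 2-2 and 3-1, a ratio of geometric means of 2.27. All exposed libraries were higher, exposed 3-3 by a narrow margin. The ratios of ccng1 and of cdkn1a to mdm2 overlapped between the groups, at 2.46 to 5.71 in exposed libraries against 2.09 to 3.03 in controls for ccng1, and at 0.0638 to 0.0735 in exposed libraries against 0.0429 to 0.0735 in controls for cdkn1a.

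The ratio of the 2 BH3-only genes among those followed, bbc3 over bida, gives the size of the contrast between them. It was 0.0697, 0.101 and 0.0519 in exposed 2-2, 3-1 and 3-3, against 0.0199, 0.0303 and 0.0250 in control 1-2, 2-2 and 3-1, a ratio of geometric means of 2.89. For Bax and a survival protein that restrains it, baxa over bcl2l1 gave 0.366, 0.345 and 0.318 in exposed libraries, against 0.208, 0.271 and 0.377 in controls, and these overlapped. For bida and the gene beside it, bcl2l13 over bida was 0.133, 0.0905 and 0.0523 in exposed 2-2, 3-1 and 3-3, against 0.0342, 0.0488 and 0.0238 in control 1-2, 2-2 and 3-1. All exposed libraries were higher, exposed 3-3 by little. mcl1a over bbc3, a survival gene over a death gene, overlapped at 11.2 to 23.1 in exposed libraries against 6.05 to 11.5 in controls.

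**Figure D4:**
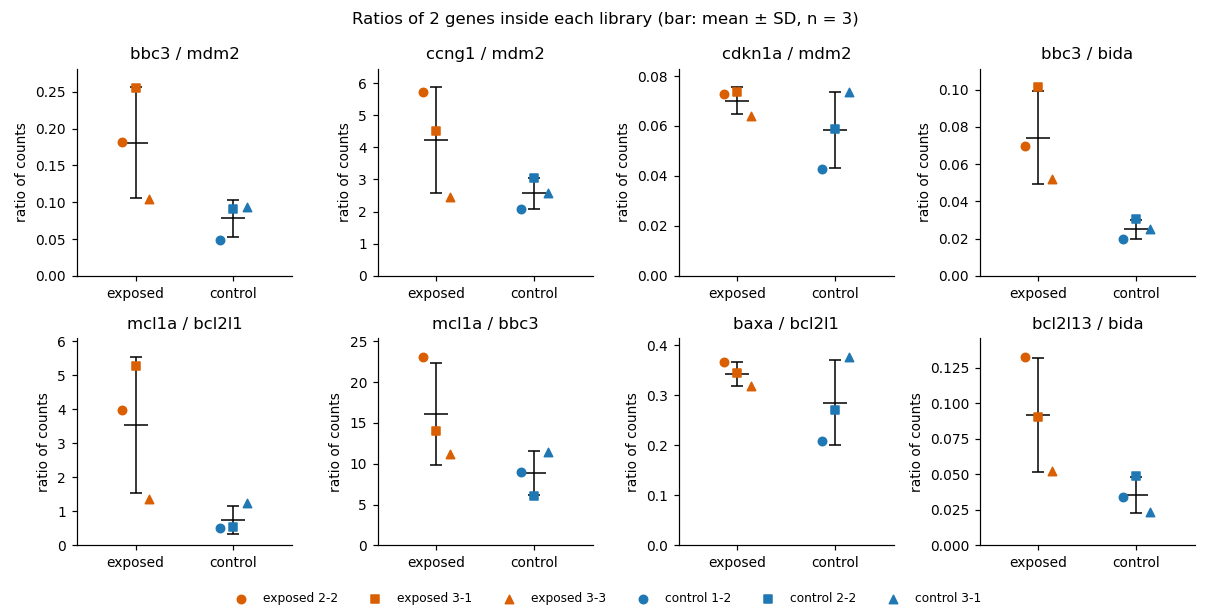
Ratios of the counts of 2 genes inside each library (vertical axes from 0, no unit) for the 8 pairs, in 3 exposed (orange) and 3 control (blue) libraries, with mean ± SD as black bars. The ratio bbc3 over bida was 0.0519 to 0.101 in exposed libraries and 0.0199 to 0.0303 in controls, whereas cdkn1a over mdm2 overlapped.

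The rest of the pathway was read from 5 lists of 117 genes, the 9 identifiers included, of which 116 were tested. None passed edgeR's test over all genes. By unadjusted edgeR p-values under 0.05, 16 of the 116 were higher and 10 lower in exposed testes, against 9.68% and 6.79% of all genes, 26 in all. The number of such genes changed with the library left out, as did the share over the whole table (16.5% with all 6 libraries), but not always in the same direction. It was 15 or 16 without control 1-2, control 2-2, exposed 2-2 or exposed 3-1, where 11.1% to 11.4% of all genes had such a p. It was 29 without control 3-1 (15.9% of all genes) and 29 without exposed 3-3 (20.1%). DESeq2, which tested all 117, called 8 higher and 3 lower, against 5.35% and 1.34% of all genes. Without exposed 3-3, edgeR called 5 of them, all higher: BTG2, PERP, pmaip1, TP63 and tnfsf10l. In that fit 396 of 26635 genes were called over the whole table (1.49%), 370 of them higher. In the edgeR fit to all 6 libraries, the median log2 fold change of the 116 was 0.08, against 0.04 over all genes tested. Of the 116, 64 were above 0, beside 13599 of all 26108 genes tested. The edgeR values of the genes named below come from that fit, in which none passed.

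Upstream, 15 of 21 genes of regulators and relatives of p53 were below 0, with a median of -0.17. USP7, which removes ubiquitin from Mdm2 and p53, had 93.8, 79.3 and 105 CPM in exposed libraries, against 133, 147 and 125 CPM in controls (-0.54 ± 0.21). SIRT1, a deacetylase of p53, had 65.1, 60.2 and 63.6 CPM in exposed libraries, against 121, 88.7 and 85.2 CPM in controls (-0.64 ± 0.22). For both, every exposed library was below every control. This held for 4 of the 21 genes and for 10.9% of all genes tested, and the reverse for 3 of the 21 and for 12.8%. The acetyltransferase gene kat5b had a log2 fold change of -0.63 ± 0.21 and the coactivator CREBBP (ENSDARG00000112452) one of -0.17 ± 0.24. The other gene named CREBBP, ENSDARG00000104609, had one of 0.13 ± 0.19. The p53 relative TP63 is also one of the epidermal markers. It had 59.2, 50.9 and 9.71 CPM in exposed 2-2, 3-1 and 3-3, against 10.5, 11.8 and 4.53 CPM in controls (2.16 ± 0.69, edgeR adjusted p = 0.216, DESeq2 adjusted p = 0.0131). Exposed 3-3 lay within the range of the controls for TP63.

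Of the p53 targets of arrest, feedback and repair, 20 of 36 were above 0, with a median of 0.10. BTG2, an antiproliferative p53 target and immediate early gene, had 319, 459.9 and 136 CPM in exposed 2-2, 3-1 and 3-3, against 43.3, 59.4 and 87.7 CPM in controls. All exposed libraries exceeded the controls, at 2.26 ± 0.47 on the log2 scale (edgeR adjusted p = 0.153, DESeq2 adjusted p = 7.45e-05). The stress kinase PLK3 had 56.5, 50.1 and 74.3 CPM in exposed libraries, against 10.5, 12.9 and 31.2 CPM in controls (1.73 ± 0.43). PERP, a p53 target that is also a protein of epithelial junctions, had 794, 321 and 115 CPM in exposed 2-2, 3-1 and 3-3, against 58.5, 80.3 and 101 CPM in controls (2.36 ± 0.67), and it followed the order of the epidermal markers within the exposed group. Other listed genes, among them mcl1a, tnfrsf1a and bcl2l13, had the same order. For BTG2, PLK3 and PERP every exposed library was above every control. This held for 6 of the 36 genes and for 12.8% of all genes tested, and the reverse for 2 of the 36 and for 10.9%. tigara, a regulator of glycolysis downstream of p53, was lower in every exposed library, at 27.3, 24.7 and 23.5 CPM, against 49.5, 45.4 and 39.8 CPM in controls (-0.84 ± 0.21, edgeR adjusted p = 0.165). DESeq2 called 4 of the 36 higher and 1 lower, against 5.35% and 1.34% of all genes. The other one called higher, the stress gene SESN1, was named after its values were seen. It had 110.1, 180.0 and 79.8 CPM in exposed 2-2, 3-1 and 3-3, against 68.3, 52.9 and 42.3 CPM in controls (1.18 ± 0.34, edgeR adjusted p = 0.180, DESeq2 adjusted p = 0.0341).

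In the BCL2 family 16 of 24 genes were above 0, with a median of 0.13, and genes on both sides of the balance were among those furthest from 0. pmaip1, the BH3-only gene Noxa, had 71.2, 101 and 16.5 CPM in exposed 2-2, 3-1 and 3-3, against 3.93, 7.90 and 9.99 CPM in controls (3.11 ± 0.70, edgeR adjusted p = 0.164, DESeq2 adjusted p = 2.16e-05). Its main partner is Mcl1, a survival protein, and mcl1a had 500.2, 407 and 181 CPM in exposed 2-2, 3-1 and 3-3, against 91.8, 81.6 and 177 CPM in controls (1.63 ± 0.45, edgeR adjusted p = 0.173, DESeq2 adjusted p = 0.00761). Exposed 3-3 was the lowest exposed library for both and, for mcl1a, was near control 3-1. The survival gene BCL2L1 was lower in every exposed library, at 126, 77.2 and 133 CPM, against 182, 151 and 144 CPM in controls (-0.51 ± 0.26). Every exposed library was below every control for 4 of the 24 genes and for 10.9% of all genes tested. The reverse held for 4 of the 24 and for 12.8%. mcl1a over bcl2l1 was 3.98, 5.28 and 1.36 in exposed 2-2, 3-1 and 3-3, against 0.503, 0.541 and 1.23 in controls. The mitophagy receptor BNIP3L (ENSDARG00000028067) had a log2 fold change of 0.80 ± 0.27. The other gene named BNIP3L, ENSDARG00000025468, had one of 0.04 ± 0.29.

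Of the apoptosome, caspase and inhibitor genes, 12 of 20 were below 0, with a median of -0.04. At an unadjusted edgeR p under 0.05, 4 of the 20 were higher and 4 lower, against 9.68% and 6.79% of all genes. The groups did not overlap for 3 higher and 3 lower genes of the 20, against 12.8% and 10.9% of all genes. The 3 higher ones, named after their values were seen, were CASP9 (0.72 ± 0.31), xiap (0.65 ± 0.27) and diabloa (1.45 ± 0.53). BIRC5, survivin, which acts mainly in dividing cells, had 93.6, 71.8 and 65.3 CPM in exposed libraries, against 105, 150.4 and 232 CPM in controls (-1.08 ± 0.32, edgeR adjusted p = 0.186, DESeq2 adjusted p = 0.0455). CASP2, a caspase activated through the p53 target Pidd1, had a log2 fold change of -0.57 ± 0.20, and PARP1, a DNA damage sensor and caspase substrate, one of -0.70 ± 0.25. The inhibitor of apoptosis BIRC2 had 160.2, 162 and 155 CPM in exposed libraries, against 148, 134 and 207 CPM in controls. In the death receptor pathway 14 of 15 genes were above 0, with a median of 0.48, and between 0.30 and 0.69 with any 1 library left out. By unadjusted edgeR p under 0.05, 1 of the 15 was higher and 0 lower, against 9.68% and 6.79% of all genes. Every exposed library was above every control for 2 of the 15, against 12.8% of all genes. The one below 0 was the cytokine gene tnfa, named after its values were seen, with 0, 220 and 57 counts in exposed 2-2, 3-1 and 3-3, against 16, 5 and 788 counts in controls. The ligand gene tnfsf10l, of the TRAIL family, had 112, 121 and 50.5 CPM in exposed 2-2, 3-1 and 3-3, against 25.8, 47.0 and 35.9 CPM in controls (1.39 ± 0.37, edgeR adjusted p = 0.171, DESeq2 adjusted p = 0.0165). The adaptor gene tradd had a log2 fold change of 0.54 ± 0.26, and the TNF receptor genes tnfrsf1b and tnfrsf1a 0.86 ± 0.44 and 0.94 ± 0.53.

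**Figure D5:**
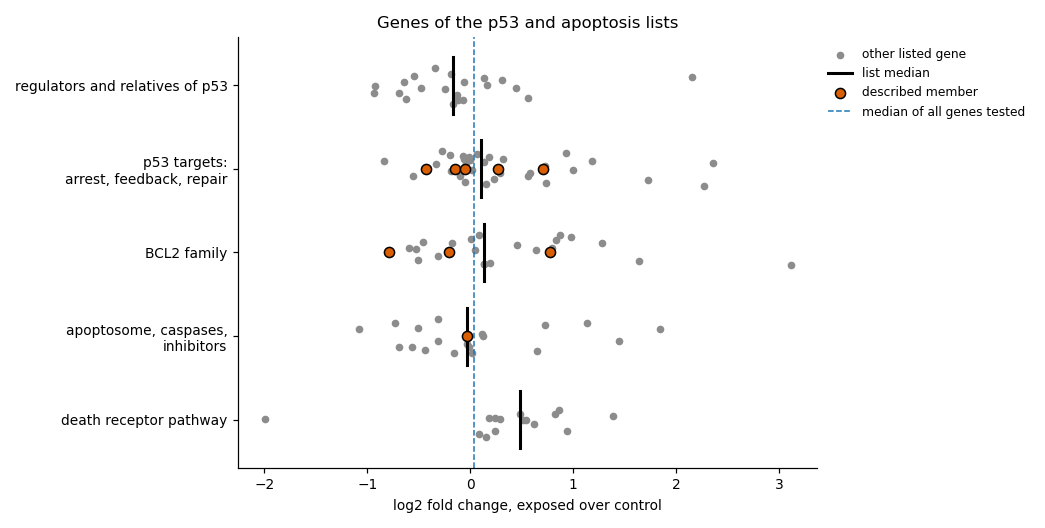
Log2 fold change, exposed over control (horizontal axis), of the 116 tested genes of 5 lists (rows), with the genes described first in orange, the other listed genes in grey and list medians as black bars. The medians run from -0.17 for regulators and relatives of p53 to 0.48 for the death receptor pathway, beside 0.04 for all genes tested (dashed line).

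Within these lists, the gene with the pattern most like that of a given gene over the 6 libraries was found by Pearson's r of log2 CPM among 115 others. These r values rest on 6 libraries of 2 groups and are a description only. For bbc3 it was BTG2 (r = 0.976), for ccng1 it was bcl2l13 (r = 0.958), for mdm2 it was CHEK1 (r = 0.925) and for bida it was diablob (r = 0.904). baxa was most like PPM1D (r = 0.936, ENSDARG00000009273), cdkn1a most like cycsb (r = 0.898) and casp8 most like RRM2B (r = 0.816). The GADD45A paralog ENSDARG00000043581 was most like GADD45B (r = 0.918, ENSDARG00000013576), and ENSDARG00000104571 most like BOK (r = 0.907, ENSDARG00000008807).

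The genes next to the members on the chromosome, read from the RefSeq assembly GRCz12tu, had values of their own for 11 of 16. bbc3 lies between sae1, a subunit of the SUMO-activating enzyme, and rad1, a DNA damage checkpoint protein. These had log2 fold changes of -0.88 ± 0.24 and -0.75 ± 0.23, against 0.77 ± 0.32 for bbc3. bida lies between the kinase gene wee2 and bcl2l13, of its own family. wee2 had a log2 fold change of -0.69 ± 0.31 and bcl2l13 one of 0.63 ± 0.37, against -0.79 ± 0.21 for bida. catip and l3hypdh, on either side of casp8, had -0.68 ± 0.25 and -0.94 ± 0.41, and casp8 itself -0.04 ± 0.35. None of these neighbours passed edgeR's test over all genes (smallest adjusted p = 0.172, for sae1).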

How the data were processed

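The authors deposited raw counts of reads for each Ensembl gene, as whole numbers in 1 column for each of the 6 animals. Per the submitters' processing notes, reads were aligned with STAR to GRCz11. The counting tool, annotation release, use of strand and treatment of mates were not given in the sources used here. Columns were matched to samples by the label descriptions (0 left out), and titles gave the groups. Nothing in the labels says that the animals came from separate tanks, so p-values measure the spread between these 6 animals. A reference table gave symbols for 29201 of 32520 genes. Of 126 symbols in the 5 pathway lists, 117 genes were matched, 26 of them through a name without the paralog suffix. Most of these names are shared by paralogs, but some, such as BAX and BCL2, are held by a single gene. The 8 marker lists gave 57 genes for 65 symbols.

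Genes were filtered with filterByExpr, and counts were scaled by TMM. The test was edgeR 4.0.16 (glmQLFit, robust, legacy method, two-sided, group only), and each SE is the size of the log2 fold change over the square root of F. DESeq2 1.42.0, limma 3.58.1 (voom), other scalings and filters, a replicate block and each library left out were alternatives, and log2 CPM for likeness used a prior count of 2. The procedure was also run on simulated counts with set fold changes, and no result here rests on that run. R 4.3.3 and Python 3.11.15 were used. The members and lists were chosen with earlier results of these data known, and some genes of the set and of the lists are not reported here. Named genes are the members and, of each list, the 3 with the smallest edgeR p and the 2 most abundant. As a scale for low levels, 3 counts equal 0.0277 to 0.0394 CPM of the library totals, before TMM scaling. This value was not used as a filter.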

Additional observations from a re-analysis of the deposited data

How the results depend on the processing

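Of 153 fold changes recomputed for the 9 identifiers under 17 alternatives, 145 kept their direction and missed the threshold as before, 1 newly passed it, bida in DESeq2, and 7 changed sign. The sign changes were all in genes with log2 fold changes between -0.15 and -0.04. casp8 stood at 0.32 with the replicate number as a block, 0.33 without control 1-2, 0.0847 without exposed 3-1 and 0.10 without exposed 3-3. Control 1-2 is the only library with its replicate number, so it adds nothing to the group difference in the block fit. The block fit and the fit without control 1-2 are therefore nearly the same comparison. The GADD45A paralog ENSDARG00000104571 was at 0.0106 without control 3-1 and 0.0391 without exposed 2-2, and cdkn1a at 0.0001 without control 3-1. The cause was not tested.

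Over all genes, DESeq2 called 1756, edgeR's bias-adjusted method 70, edgeR without a filter 12, the replicate block 5, and RLE scaling, upper quartile scaling, library totals and halved counts 1 each, against 0 in the fit reported. Leaving out 1 library gave between 0 and 396 genes, the highest without exposed 3-3. Of the 9 identifiers, DESeq2 called 1, and leaving out 1 library called 0 in each case. In the fits with 1 library left out, 1 to 3 of the 9 had an unadjusted p under 0.05, against 11.1% to 20.1% of all genes. Of the 117 pathway genes, DESeq2 called 11, and leaving out 1 library gave between 0 and 5, the 5 without exposed 3-3. With the replicate block 0 of the 9 passed. Exposed and control libraries with the same replicate number did not deviate together (r between -0.03 and 0.02). With 3 libraries in each group, this check cannot exclude a shared tank or batch. The pair exposed 3-1 and exposed 3-3, within 1 group, was not compared in this way. The 3 other scalings moved the median of all genes by less than 0.1 on the log2 scale. Each of the 9 identifiers had at least 598 counts in every library.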
